A study of Mus musculus with 11 samples.

Results

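Genes that build the Z-disc, the M-band, the thin filament and the desmin network of the heart muscle cell, together with the muscle chaperones and ubiquitin ligases that fold and remove sarcomere proteins, were followed in mouse hearts with and without an HMGN5 transgene. Members were named by sarcomere compartment, with earlier results of these data known. Of 34 named genes, 33 were measured, out of 18194 genes on the arrays, and Trim55 is not analysed here. The 33 fell into 4 thick filament and M-band genes (Ttn, Mybpc3, Myom1, Myom2), 12 Z-disc and costamere genes (Actn2, Nebl, Myot, Myoz1, Myoz2, Tcap, Ldb3, Pdlim3, Pdlim5, Flnc, Synpo2l, Smpx), 3 genes of the desmin intermediate filament and its chaperone (Cryab, Des, Synm), 9 thin filament genes (Tpm1, Tpm2, Tpm3, Tpm4, Lmod2, Lmod3, Tmod1, Tmod4, Cap2), 2 myosin chaperones (Smyd1, Unc45b) and 3 muscle ubiquitin ligases (Trim54, Trim63, Fbxo32).

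Left ventricle RNA of C57BL/6 mice was hybridised to 11 Affymetrix arrays. The transgenic hearts carried a FLAG-tagged full-length mouse Hmgn5 cDNA under the CAG promoter, silent behind a floxed LacZ until alphaMHC-cre, which is active in heart muscle cells, removed the LacZ. There were 4 groups. Adult hearts gave 3 transgenic and 3 control arrays and newborn hearts 3 transgenic and 2 control arrays, and no age is given beyond adult and newborn. Controls were labelled wild-type, so an effect of the transgene and an effect of the Cre recombinase cannot be told apart. Nothing beyond the word biological in the labels says that replicates came from separate animals, and the p-values measure the spread between these arrays.

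The sarcomere is the contractile unit of striated muscle. Thin filaments of actin and tropomyosin are anchored in the Z-disc, thick filaments of myosin are linked in the M-band, and titin spans from one to the other. Z-discs are tied to each other by desmin and to the cell membrane by costameres. In the heart the proteins are replaced continuously: the chaperones Unc45b and Smyd1 act on myosin folding and assembly, alpha B-crystallin (Cryab) protects desmin and titin, and the muscle ubiquitin ligases mark sarcomere proteins for degradation. After birth heart muscle cells stop dividing and enlarge, and their sarcomeres change isoforms.

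Short stretches of promoter are shown first because several members carry binding motifs of the transcription factors best known for driving muscle genes. RefSeq promoter windows (assembly GRCm38.p6, from 250 bases before to 50 bases after a gene start) were at hand for 26 of the 33 members. They were searched on both strands for the CArG box, which serum response factor binds, for the MEF2 site and for the MCAT element CATTCC, which TEAD factors bind. The CArG box was found in 3 of the 26 members (11.5%; 1.58% of all 14453 genes with a window), the MEF2 site in 4 (15.4%; 2.51%) and the MCAT element in 8 (30.8%; 15.3%). The TATA box TATAAA, searched on both strands as well, was in 11.5% of members and 11.5% of all genes. These are matches of letters and not binding measurements. The sequences below run 5′ to 3′ on the gene's strand, with the CArG box in capitals in Myom1 (chr17:71019448-71019477, plus strand), Nebl (chr2:17462999-17463028, minus strand) and Ldb3 (chr14:34588697-34588726, minus strand).
Myom1: gccttcctggCCATAAAAGGctggctgtgg
Nebl: gctcccatctCCTAAATTGGctggaaatgc
Ldb3: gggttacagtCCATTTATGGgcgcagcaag
In the next 4 the capitals mark the MEF2 site, in Ttn (chr2:76982694-76982723, minus strand), Mybpc3 (chr2:91118044-91118073, plus strand) and at 2 start sites of Synpo2l (chr14:20664699-20664728 and chr14:20668444-20668473, minus strand).
Ttn: ttctgaaaggCTAAATTTAGcactgccaat
Mybpc3: tggaatttgtCTATATTTAGcaggtggcta
Synpo2l, downstream start site: tggctcaggtTTATTTTTAGccaggcagac
Synpo2l, upstream start site: gaaatttgtaCTATAATTAGttctaggagt
Of these 6 genes, Nebl and Synpo2l are described below as called between transgenic and control adults, and Ttn, Mybpc3, Myom1 and Ldb3 as not called.

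Replicate 3 of both adult groups stood apart from the other arrays. Its 18S ribosomal RNA control signal was 12.18 in the transgenic and 11.89 in the control group, against 7.64 to 8.58 on the other 4 adult arrays and 10.05 to 10.53 on newborn arrays, so array signal and age also differed together. Malat1, a nuclear RNA, was at 13.04 and 12.75 on these arrays against 8.15 to 9.33 on the other adult arrays. Control adult replicate 3 alone also had raised Ucp1 (7.62) and Adipoq (7.89), against at most 3.91 and 4.64 on the other adult arrays. Of the 7 fat markers measured, Cidec (4.22) and Retn (6.22) were also highest among adult arrays on this one. Cidea (8.77), Fabp4 (12.96) and Lep (3.58) were lowest on it. Atrial transcripts (mean of Myl4, Myl7 and Sln) were at 6.59 and 6.52 on transgenic adult replicates 2 and 3 but at 10.53 on replicate 1 and between 10.10 and 12.24 in control adults. Over the whole list of 11 atrial markers, 1 rose in transgenic adults (Nppa, by 2.35) and 2 fell (Kcnj3, by 2.49, and Stard10, by 1.78), and these 3 moved on all 3 transgenic arrays. The part of these differences in the members' values was not tested beyond the settings given with them. The 9 heart muscle cell markers held 0 calls between transgenic and control adults, with summed levels of 16.73 to 16.83 and 16.82 to 16.91. The Hmgn5 probe set read 8.26 to 8.71 in transgenic and 8.44 to 8.77 in control adults, and 8.56 to 8.84 against 8.81 to 8.85 in newborns. It therefore does not check the labels, and whether it lies within the transgene's cDNA is not known here. Values are log2 signals, and a difference of 1.00 is a doubling. A member was called, and is said to have risen or fallen, at an adjusted p under 0.05, and every adjusted p is limma's with Benjamini-Hochberg adjustment over all genes of a contrast.

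**Figure D1:**
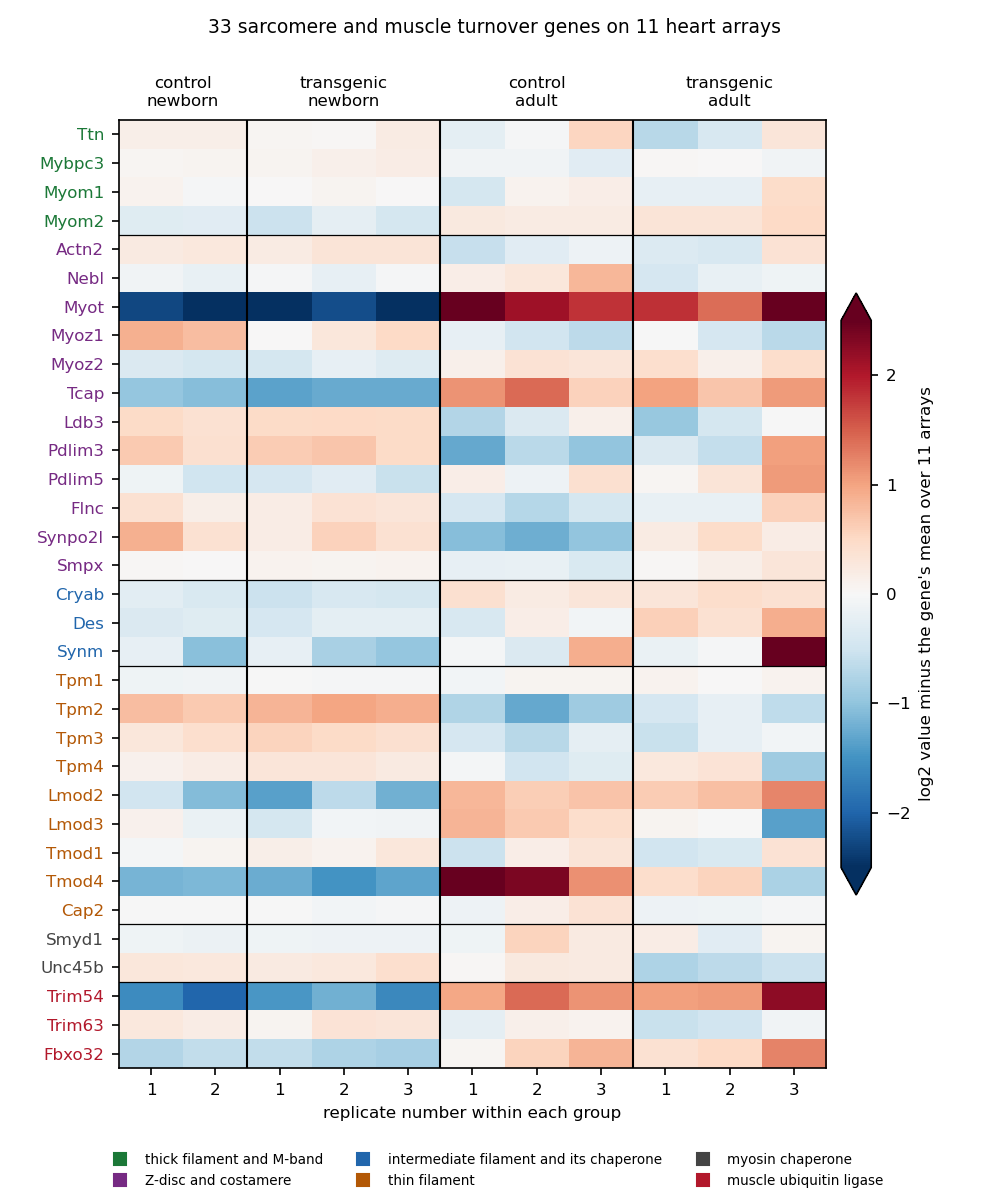
Log2 signal of the 33 members (rows, ordered by compartment) on each of the 11 arrays (columns, by group and replicate), each gene shown as the difference from its mean over all arrays, with colours that saturate at the ends of the scale. Myot, Tcap, Trim54 and Tmod4 separate adult from newborn arrays, and replicate 3 of the transgenic adults stands out in Synm, Pdlim3 and Lmod3.

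Adult transgenic hearts had more Synpo2l, Des and Smpx mRNA than adult controls and less Unc45b, Tmod4 and Nebl mRNA. These 6 of 33 members were called (3 higher, 3 lower), where 7.09% of all genes were called (4.16% higher, 2.93% lower). The other 27 did not pass the test. The median difference of the 33 was 0.09, against 0.00 for all 18194 genes, and the median size of the difference was 0.23, against 0.15. Arrays of the groups did not overlap in 12 of 33 members and in 17.9% of all genes. By compartment, 3 of 12 Z-disc genes were called, 1 of 3 desmin filament genes, 1 of 9 thin filament genes, 1 of 2 myosin chaperones, 0 of 4 thick filament and M-band genes and 0 of 3 ubiquitin ligases. Among these last 7, only Trim63 had an unadjusted p under 0.05.

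Synpo2l encodes a Z-disc protein of the synaptopodin family that binds actin. Its signal was 11.48, 11.75 and 11.47 on the transgenic adult arrays and 10.21, 10.06 and 10.30 on the control adult arrays. Every transgenic adult array lay above every control adult array, in the range of the newborn hearts (11.47, 11.86 and 11.67 transgenic; 12.17 and 11.67 control). The adult difference was 1.38 (SE 0.16, 95% interval 1.03 to 1.72, adjusted p = 0.000679), or 2.6-fold. In newborns it was -0.26 (interval -0.64 to 0.13). The adult effect exceeded the newborn effect by 1.63 (SE 0.24, adjusted p = 0.0148), and Synpo2l was the only member of 33 called for this difference, where 0.687% of all genes were. That call was lost without transgenic newborn replicate 3 (1.64, adjusted p = 0.052) and without control newborn replicate 1 (1.38, adjusted p = 0.111), and with the atrial level as a covariate (1.60, adjusted p = 0.0989).

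Smpx, a small protein of the costamere, stood at 13.02, 13.13 and 13.29 in transgenic adults and at 12.79, 12.80 and 12.60 in control adults. The groups did not overlap, and the difference was 0.42 (SE 0.11, adjusted p = 0.0377). Newborn hearts were at 13.07 ± 0.01 (SD, n = 3) in transgenic and 13.01 ± 0.01 (SD, n = 2) in control mice. Nebl encodes nebulette, the cardiac relative of nebulin that reaches from the Z-disc along the thin filament. It was at 10.80, 11.04 and 11.11 in transgenic adults and at 11.39, 11.50 and 12.05 in control adults. Its fall of 0.66 (SE 0.17, adjusted p = 0.0369) left the transgenic adults within the range of the newborn hearts, 11.01 to 11.20, apart from replicate 1, which lay below it.

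Both calls rested on few arrays. Leaving out 1 array at a time ended the Smpx call for transgenic adult replicates 2 and 3, control adult replicates 2 and 3 and each of the 5 newborn arrays, with differences of 0.35 to 0.45 and adjusted p of 0.0637 to 0.106. For Nebl it ended for transgenic adult replicates 1 and 2, control adult replicates 2 and 3 and each newborn array, with differences of -0.74 to -0.46 and adjusted p of 0.0589 to 0.116. With replicate 3 of both adult groups left out, Smpx differed by 0.28 (adjusted p = 0.12) and Nebl by -0.53 (adjusted p = 0.024).

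Of the other Z-disc genes, Pdlim3 and Flnc came nearest to the threshold. Pdlim3, a PDZ and LIM domain protein that binds alpha-actinin, read 9.31, 9.08 and 10.70 in transgenic adults against 8.39, 8.99 and 8.69. The groups did not overlap, but the difference of 1.01 (SE 0.34, adjusted p = 0.113) was 2.01 at replicate 3 and 0.50 over replicates 1 and 2. Flnc, filamin C, an actin cross-linker of the Z-disc and costamere, read 9.62, 9.63 and 10.39 against 9.40, 9.10 and 9.38, a difference of 0.59 (SE 0.19, adjusted p = 0.103). Actn2, Myot, Myoz1, Myoz2, Tcap, Ldb3 and Pdlim5 differed by between -0.14 and 0.33, with adjusted p of 0.511 or more.

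Des encodes desmin, the intermediate filament that links neighbouring Z-discs. Its signal was 12.30, 12.09 and 12.61 in transgenic adults and 11.31, 11.86 and 11.64 in control adults, with no overlap. Desmin mRNA rose by 0.73 (SE 0.16, adjusted p = 0.0198), or 1.66-fold, and the newborn arrays of both genotypes lay at 11.28 to 11.46. The call was lost without transgenic adult replicate 1 (0.75, adjusted p = 0.0524). Synm, synemin, a partner of desmin in the same filament, was low on most arrays and high on replicate 3 of both adult groups (8.74 transgenic, 6.72 control, against 5.46 to 5.79 on the other adult arrays), and its difference of 0.74 had an SE of 0.69. A second Synm probe set, less bright but tighter, averaged 6.28 ± 0.10 (SD, n = 3) in transgenic and 5.46 ± 0.11 (SD, n = 3) in control adults, a difference of 0.82 (adjusted p = 0.00874 over all 34958 probe sets). Cryab, at 13.28 ± 0.07 and 13.21 ± 0.09 (SD, n = 3 each), differed by 0.07 (interval -0.15 to 0.29).

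Desmin is also made by smooth muscle cells and pericytes. Of 13 markers of those cells, Des among them, 4 rose and 1 fell in transgenic adults, and their summed level was 13.96 to 14.22 against 13.52 to 13.70. For this and the marker lists below, the shares of all genes were 4.16% higher and 2.93% lower. Smooth muscle actin (Acta2) rose by 1.56 (SE 0.21, adjusted p = 0.00162) and calponin (Cnn1) by 1.83 (SE 0.19, adjusted p = 0.000418), while Myh11 was at 6.96 to 7.37 in transgenic and 6.79 to 7.47 in control adults. Of 12 fibroblast markers, 3 rose (summed level 15.04 to 15.39 against 14.34 to 14.94), and of 12 macrophage markers, 4 rose (12.64 to 13.34 against 12.42 to 12.71). Of 15 skeletal muscle markers, 2 rose, Myl1 by 2.11 (SE 0.44, adjusted p = 0.0153; 12.27 to 12.64 against 8.98 to 11.19) and Tnnt3 by 0.84 (SE 0.18, adjusted p = 0.0169; 4.40 to 4.90 against 3.57 to 4.15). The other skeletal markers did not pass, with Myh1 and Myh4 at 3.29 to 3.50 on the adult arrays, under the array medians. The part of other cell types in the differences of the members was not tested. In tissue RNA, fewer cells of a type and less RNA per cell cannot be told apart.

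Unc45b, the myosin chaperone, was the most even of the members that fell. Transgenic adult arrays gave 10.16, 10.28 and 10.40, and control adult arrays gave 10.96, 11.19 and 11.17. Newborn arrays of both genotypes lay at 11.17 to 11.36, so the transgenic adults were below all other hearts. The fall was 0.82 (SE 0.11, interval -1.07 to -0.58, adjusted p = 0.00172), with a newborn difference of 0.03 (interval -0.24 to 0.30). The difference between the 2 effects was -0.85 (SE 0.17, adjusted p = 0.0511), and it passed without transgenic adult replicate 3 (-0.91, adjusted p = 0.0168) or control adult replicate 1 (-0.92, adjusted p = 0.0337). Over 23 other settings this difference passed in 7 and did not in 16, with adjusted p of up to 0.288. Smyd1, a methyltransferase that acts with Unc45b on myosin, differed by -0.23 (interval -0.60 to 0.14) in adults.

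Tmod4, a tropomodulin that caps the pointed ends of thin filaments and is best known from skeletal muscle, had the largest difference of the 33 members. It read 7.21, 7.32 and 5.99 in transgenic adults against 9.41, 9.13 and 7.91 in control adults, without overlap. The lowest array of each group was replicate 3. Tmod4 fell by 1.98 (SE 0.39, interval -2.84 to -1.11, adjusted p = 0.0124), by 1.91 at replicate 3 and by 2.01 over the other 2 replicates. Without control adult replicate 2 it fell by 1.82 and the call was lost (adjusted p = 0.0585). Newborn arrays were at 5.28 to 5.65, close to the array medians of 5.12 to 5.18, so that a difference between newborn groups would be hard to see there.

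Lmod3, a leiomodin that starts and lengthens actin filaments, lay lower in transgenic adults as well but missed the threshold. Its signal was 9.51, 9.44 and 8.09 in transgenic adults and 10.30, 10.11 and 9.89 in control adults, a difference of -1.09 (SE 0.31, adjusted p = 0.0636) with no overlap. Without transgenic adult replicate 3 it differed by -0.63 (adjusted p = 0.0246), and without transgenic adult replicate 1 by -1.34 (adjusted p = 0.0458). Over 24 other settings Lmod3 passed in 7 and did not in 17, with adjusted p of up to 0.556. Tropomyosins lie along the actin filament and, with the troponins, gate its contact with myosin. Tpm2 was at 8.95, 9.16 and 8.74 in transgenic adults and at 8.63, 8.09 and 8.49 in control adults, a difference of 0.55 (SE 0.15, adjusted p = 0.057). Without transgenic adult replicate 3 the Tpm2 difference was 0.65 (adjusted p = 0.0196), and without control adult replicate 1 it was 0.66 (adjusted p = 0.0314). Tpm2 passed in 6 of 24 other settings and did not in 18, with adjusted p of up to 0.318. Tpm1, the main tropomyosin of the heart, read 13.81 to 13.98 on all adult arrays, near the array maxima of 14.21 to 14.37, which limits the size of any change that could be seen. Lmod2, Tmod1, Cap2, Tpm3 and Tpm4 differed by between -0.23 and 0.19 by the probe sets used, although another Tpm3 probe set was called, as given below.

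Among the thick filament and M-band genes, Ttn (titin) differed by -0.34 (interval -0.88 to 0.19), Mybpc3 (cardiac myosin binding protein C) by 0.15 (interval -0.07 to 0.36), Myom1 by 0.09 (interval -0.35 to 0.52) and Myom2 by 0.17 (interval -0.07 to 0.41). The last 2 encode myomesins, which cross-link myosin in the M-band. Trim63 (MuRF1), a ligase that marks thick filament proteins, was at 10.42, 10.49 and 10.88 in transgenic adults and 10.76, 11.10 and 11.06 in control adults. The groups overlapped, and the difference of -0.38 had an adjusted p of 0.173. Fbxo32 (atrogin-1) differed by 0.23 and Trim54 (MuRF3) by 0.27, both with intervals that span 0. At replicate 3 Trim54 differed by 1.11, against -0.14 over replicates 1 and 2.

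**Figure D2:**
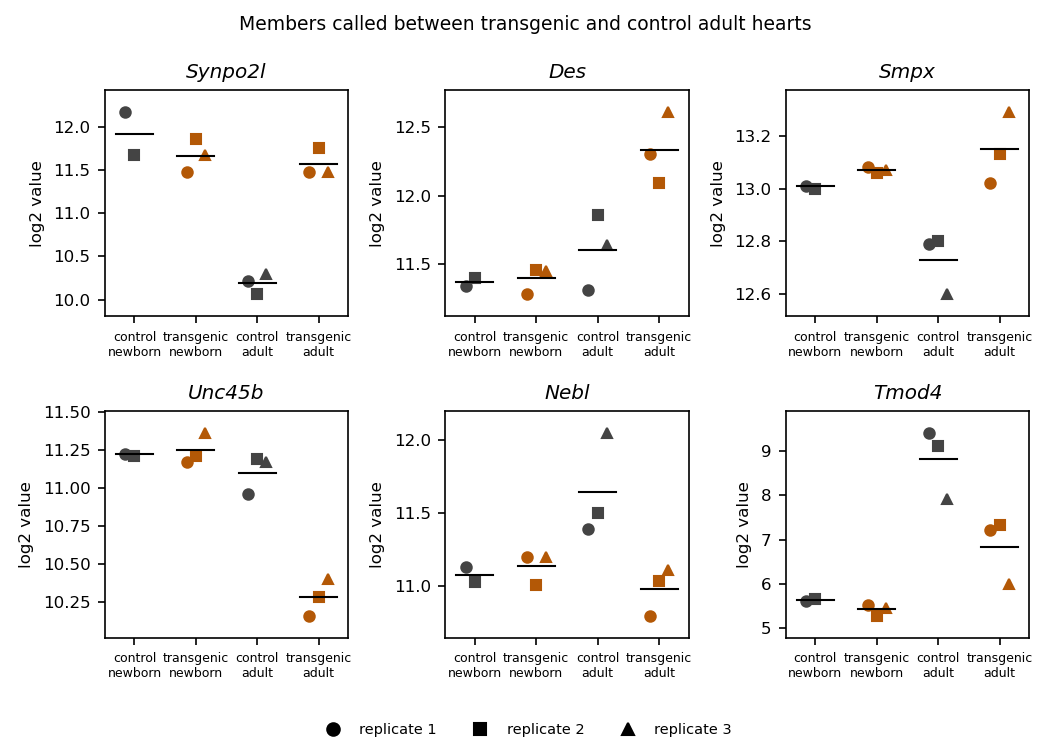
Log2 signal of the 6 members called between transgenic and control adults, 1 point per array in each of the 4 groups, with the group mean as a line and the replicate number as the symbol; each panel has its own y axis. Transgenic adults sit at the newborn level for Synpo2l, above all newborn arrays for Des and below all newborn arrays for Unc45b.

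In the fit over all 11 arrays the groups shared 1 estimate of spread, although the members' median SD was 0.31 in transgenic adults, 0.23 in control adults, and 0.10 and 0.07 in transgenic and control newborns. With the adult arrays fitted alone, 2 of 33 members were called, Synpo2l and Unc45b, and 373 of all 18194 genes, against 1290 with all arrays. With arrays set to a common median, 1 member was called higher and 4 lower, and of the 1507 genes called 49.5% were higher, against 58.7%. Transgenic adult replicate 3 was the highest of its 3 arrays in 23 of 33 members, against 25.3% of all genes. Control adult replicate 3 was the highest in 12 of 33 members, against 26.2% of all genes. Both were the highest in 11 members, against 11.3% of all genes. With replicate 3 of both adult groups left out, 8 members were called: Des, Synpo2l, Tpm2 and Tpm4 higher, and Lmod3, Nebl, Tmod4 and Unc45b lower. Calls among all genes went from 1290 to 2183, or from 7.09% to 12%, in that setting.

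**Figure D3:**
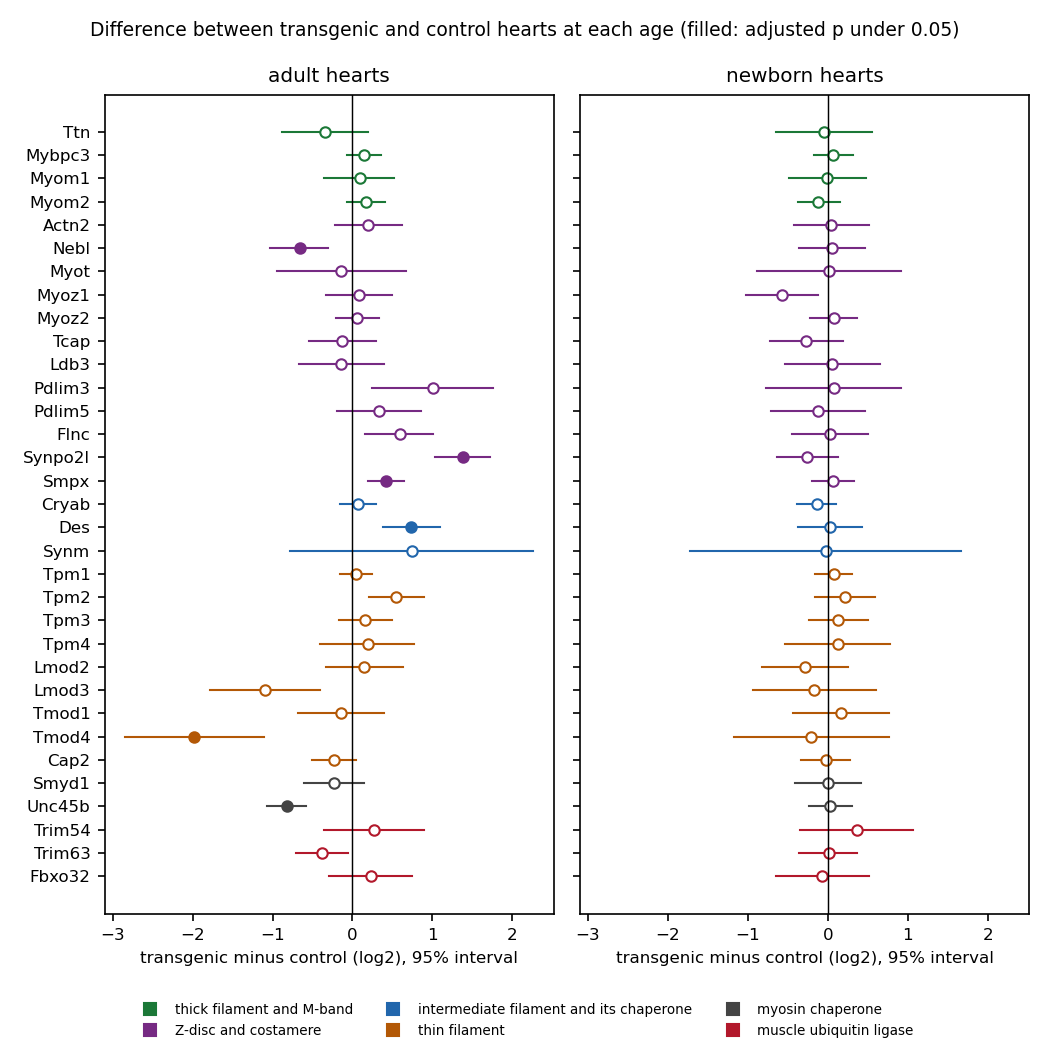
Difference between transgenic and control hearts (log2, x axis) for each of the 33 members (y axis, by compartment) in adults and in newborns, with 95% intervals from limma and filled points where a member was called. Adult differences run from -1.98 (Tmod4) to 1.38 (Synpo2l) and newborn differences from -0.57 (Myoz1) to 0.36 (Trim54).

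In newborn hearts limma called 0 of the 33 members between transgenic and control, and 0% of all genes. An unadjusted p under 0.05 was reached by 1 member, and by 198 of the 18194 genes. That member was Myoz1, a calsarcin that tethers calcineurin at the Z-disc. It read 5.56, 5.82 and 6.04 in transgenic and 6.44 and 6.32 in control newborns, a difference of -0.57 (SE 0.21, interval -1.03 to -0.12, adjusted p = 1). Newborn groups did not overlap in 10 of 33 members and in 20.9% of all genes. The median size of the difference was 0.07, against 0.08 for all genes. Intervals for the 6 members called in adults were -0.20 to 0.32 for Smpx, -0.37 to 0.43 for Des, -0.36 to 0.47 for Nebl and -1.18 to 0.76 for Tmod4, beside those given above for Synpo2l and Unc45b. The adult differences of all 6 lie outside these intervals, while for Smpx, Des, Nebl and Tmod4 the test of the adult against the newborn effect did not pass (adjusted p of 0.281 to 0.482).

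After birth control hearts gained Myot, Tmod4, Trim54 and Tcap mRNA and lost Synpo2l, Tpm2 and Pdlim3 mRNA. Between control newborns and control adults 10 members rose and 6 fell, 16 of 33, where 33% of all genes were called (14.9% higher, 18.1% lower). The groups did not overlap in 25 members and in 63.6% of all genes. The members' median size of change was 0.63, against 0.34. These arrays include the control adults used above, so this comparison and the adult transgenic comparison share samples. With a common array median the control contrast held 11 higher and 5 lower members, and the median of all genes moved from 0.09 to 0.26, so small changes are read relative to that shift. Calls among all genes went from 6006 to 8413, or from 33% to 46.2%, in that setting.

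Myot encodes myotilin, which cross-links actin at the Z-disc. It was at 4.78 and 4.20 in control newborns, below the array medians, and at 9.72, 9.17 and 8.86 in control adults. The rise of 4.76 (SE 0.41, adjusted p = 1.36e-05) was the largest of the 33. Tcap, telethonin, which caps titin at the Z-disc, went from 10.70 and 10.61 to 12.80, 13.10 and 12.26, a rise of 2.06 (SE 0.21, adjusted p = 4.16e-05). Myoz2, the cardiac calsarcin, rose by 0.66 (adjusted p = 0.00393), whereas Myoz1 fell by 1.28 (adjusted p = 0.000905), from 6.44 and 6.32 to 5.33, 5.07 and 4.89, near the array medians.

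Tmod4 went from 5.62 and 5.65 in control newborns to 9.41, 9.13 and 7.91 in control adults, a rise of 3.18 (SE 0.44, adjusted p = 0.000337). Lmod2, the leiomodin that elongates cardiac thin filaments, rose by 1.51 (SE 0.25, adjusted p = 0.000946), from 10.36 and 9.76 to 11.67, 11.46 and 11.56. Tpm2 fell from 10.14 and 10.03 to 8.63, 8.09 and 8.49, by 1.68 (SE 0.17, adjusted p = 4.22e-05), and Tpm3 fell by 0.79 (adjusted p = 0.00479). Trim54 went from 7.09 and 6.68 to 9.62, 10.08 and 9.78, a rise of 2.94 (SE 0.32, adjusted p = 6.48e-05). Fbxo32 rose by 1.14 (SE 0.26, adjusted p = 0.00741), while Trim63 changed by -0.23 (interval -0.60 to 0.13).

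Synpo2l fell by 1.73 (SE 0.18, adjusted p = 4.16e-05) in controls, from 12.17 and 11.67 to 10.21, 10.06 and 10.30. Pdlim3 fell by 1.51 (adjusted p = 0.0121) and Flnc by 0.78 (adjusted p = 0.0188). Myom2 rose by 0.50 (adjusted p = 0.00979), Nebl by 0.57 (adjusted p = 0.0387) and Cryab by 0.63 (adjusted p = 0.00157). With 2 control newborn arrays some of these calls hung on one. Without control newborn replicate 1 the calls of Myom2 (adjusted p = 0.0721), Nebl (0.136), Pdlim3 (-1.37, adjusted p = 0.104), Flnc (0.153) and Fbxo32 (1.08, adjusted p = 0.068) were lost, and without replicate 2 those of Myom2 (adjusted p = 0.0571), Nebl (0.163) and Flnc (0.0531). Flnc was also lost without control adult replicate 2 (adjusted p = 0.059), and Nebl without control adult replicate 3 (adjusted p = 0.0734) or any transgenic newborn array (0.053 to 0.0552).

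In transgenic hearts, 11 members rose after birth and 6 fell, 17 of 33, where 39.4% of all genes were called (19.7% in each direction). The groups did not overlap in 20 members and in 54.6% of all genes. These arrays share none with the control contrast. Of the rises, 9 were common to both genotypes, which is 90% of the control list and 81.8% of the transgenic list. Of the falls, 3 were common, 50% of each list. The same overlap over all genes was not computed, so these shares cannot be called particular to the members. By the probe sets used, the common rises were Myom2, Myot, Myoz2, Tcap, Cryab, Lmod2, Tmod4, Trim54 and Fbxo32. The common falls were Myoz1, Tpm2 and Tpm3. With the atrial level as a covariate the transgenic calls of Myom2, Myoz2, Tmod4, Fbxo32, Myoz1 and Tpm3 were lost. Other probe sets departed from these common calls, among them those of Tpm3, Flnc, Ldb3, Tpm1, Synm and Smyd1, as given below. Myot rose by 4.61 (SE 0.37), Trim54 by 2.86 (SE 0.29), Tcap by 2.20 (SE 0.19), Lmod2 by 1.94 (SE 0.22) and Fbxo32 by 1.44 (SE 0.24), all with adjusted p of 0.000908 or less. On the transgenic arrays Myot went from 4.16, 4.83 and 4.54 in newborns to 8.89, 8.45 and 10.01 in adults, and Tcap from 10.33, 10.42 and 10.42 to 12.68, 12.36 and 12.74. Lmod2 went from 9.48, 10.18 and 9.64 to 11.48, 11.59 and 12.06. Each of these adult arrays lay above each newborn array, as in controls. Trim54 went from 7.21, 7.46 and 7.05 to 9.68, 9.73 and 10.89, and Fbxo32 from 8.63, 8.46 and 8.41 to 9.62, 9.73 and 10.47, a rise that its other probe sets did not share at the threshold. Tmod4 went from 5.53, 5.28 and 5.45 to 7.21, 7.32 and 5.99, a rise of 1.42 (SE 0.39, adjusted p = 0.0161) beside 3.18 in controls. Tpm2 fell by 1.35 (SE 0.15, adjusted p = 8.17e-05), from 10.23, 10.36 and 10.29 to 8.95, 9.16 and 8.74.

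Some members were called after birth in 1 genotype and not in the other. Synpo2l changed by -0.10 (interval -0.44 to 0.25) in transgenic hearts beside its fall of 1.73 in controls, and this difference is the same quantity as the 1.63 tested above. Nebl changed by -0.15 (interval -0.52 to 0.22) beside a rise of 0.57. Unc45b fell by 0.96 (SE 0.11, adjusted p = 9.15e-05) in transgenic hearts and changed by -0.11 (interval -0.39 to 0.16) in controls. Des rose by 0.94 (SE 0.16, adjusted p = 0.00126) beside 0.23 (interval -0.17 to 0.63), and Pdlim5 rose by 0.90 (adjusted p = 0.0126) beside 0.44 (interval -0.14 to 1.03). Ldb3, the Z-disc protein also called Cypher or ZASP, fell by 0.95 (adjusted p = 0.0105) beside -0.75 (adjusted p = 0.0523), although another Ldb3 probe set rose in both genotypes, and Trim63 fell by 0.62 (adjusted p = 0.00791) beside -0.23. Apart from Synpo2l, the difference between genotypes did not pass for any of these genes. Without 1 array the transgenic calls of Tmod4 (1.24 without transgenic adult replicate 1, 1.18 without replicate 2, 1.35 without transgenic newborn replicate 2) and Myoz1 (-0.60 and -0.48 without transgenic adult replicates 2 and 3, -0.63 and -0.51 without transgenic newborn replicates 2 and 3) were lost, with adjusted p of 0.0508 to 0.0811.

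**Figure D4:**
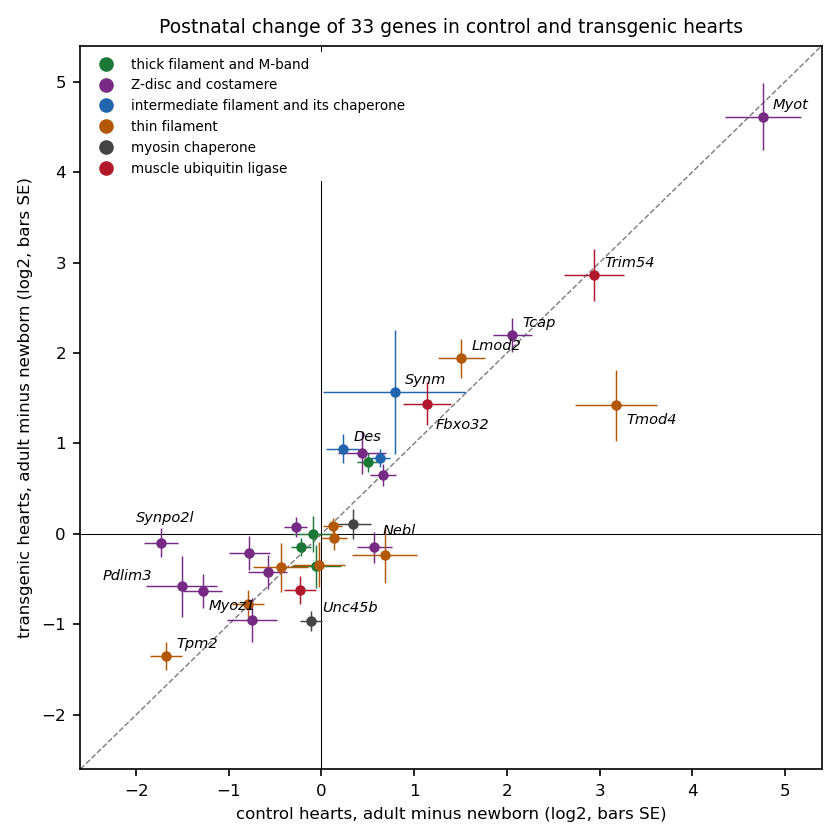
Adult minus newborn difference (log2) of each of the 33 members in control hearts (x axis) and transgenic hearts (y axis), coloured by compartment, with standard errors as bars and equality as the dashed line. Myot, Trim54, Tcap and Lmod2 lie near the line, while Synpo2l (-1.73 and -0.10) and Unc45b (-0.11 and -0.96) lie away from it.

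Several members were measured by more than 1 probe set, and these did not always move alike. For Synpo2l, 3 of 4 probe sets were higher in transgenic adults, by 2.04, 1.38 and 1.14, and the fourth, dim one differed by -0.15. For Nebl the other 2 probe sets, both dimmer, differed by 0.23 and -0.44, and the chosen one had an adjusted p of 0.0548 when all 34958 single-symbol probe sets were fitted together. Tpm2, not called by its brightest probe set, was called by others (0.76, adjusted p = 0.0244, and 0.61, adjusted p = 0.041). The one at 0.61 averaged 5.0 in transgenic and 4.39 in control adults, under the array medians. A further Tpm2 probe set differed by 0.77 and did not pass (adjusted p = 0.138). The brightest Tpm3 probe set differed by 0.16, and another was called, at 0.49 (adjusted p = 0.0396). The rest of the Tpm3 probe sets, at 0.16 to 0.78, did not pass. Pdlim5 binds alpha-actinin and has long and short isoforms. Its brightest probe set differed by 0.33 between adults, but 2 others were called, at 1.64 (adjusted p = 0.0136) and 2.10 (adjusted p = 0.0465). The first of those averaged 10.71 ± 0.78 (SD, n = 3) in transgenic adults, 9.08 ± 0.08 (SD, n = 3) in control adults, 10.72 ± 0.08 (SD, n = 3) in transgenic newborns and 10.61 ± 0.18 (SD, n = 2) in control newborns. Its change after birth in controls was -1.53, against 0.44 for the brightest probe set.

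Tpm1 and Ldb3 showed the same kind of split after birth in controls. The brightest Tpm1 probe set changed by 0.12, another by -1.38 and another by 1.12. In transgenic hearts the same probe sets changed by 0.09, -1.12 (adjusted p = 0.000883) and 1.31 (adjusted p = 0.000147). The brightest Ldb3 probe set changed by -0.75 and another rose by 1.04 (adjusted p = 0.00227). In transgenic hearts too this other Ldb3 probe set rose, by 1.16 (adjusted p = 0.000568), beside the fall of the brightest. The dimmer Tpm3 probe sets changed by -0.74, -0.36, -0.09 and 0.43 in transgenic hearts, the last called as a rise (adjusted p = 0.0174). The dimmer Flnc probe set fell in both genotypes, with -1.44 in controls (adjusted p = 0.00121) and -1.04 in transgenic hearts (adjusted p = 0.00362). The dimmer Synm probe set rose in controls (0.61, adjusted p = 0.0157) and in transgenic hearts (1.44, adjusted p = 4.98e-05). A dimmer Smyd1 probe set rose by 0.69 (adjusted p = 0.0224) and 0.76 (adjusted p = 0.00764), and another by 0.57 (0.00663) and 0.49 (0.00716). The rest of the Smyd1 probe sets, the brightest among them, did not pass. The rise of Fbxo32 after birth was called for its brightest probe set alone: the other 2 gave 0.45 (adjusted p = 0.28) and 0.51 (adjusted p = 0.612) in transgenic hearts. With the mean of all probe sets of a gene the transgenic change was 0.80 for Fbxo32 (adjusted p = 0.146), -0.35 for Ldb3 (adjusted p = 0.467), 0.62 for Pdlim5 (adjusted p = 0.2) and -0.25 for Myoz1 (adjusted p = 0.129), so these 4 calls ended. In controls it ended those of Fbxo32 (0.79, adjusted p = 0.206) and Nebl (0.21, adjusted p = 0.401), and between adult genotypes those of Des (0.66, adjusted p = 0.066) and Nebl (-0.29, adjusted p = 0.424). Over the 16 members called in the control contrast there were 21 other probe sets, of which 18 moved in the same direction and 13 were called in it. In the adult transgenic contrast 4 of 6 other probe sets of called members moved in the same direction and 2 were called. Which transcripts each probe set reads was not analysed here.

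**Figure D5:**
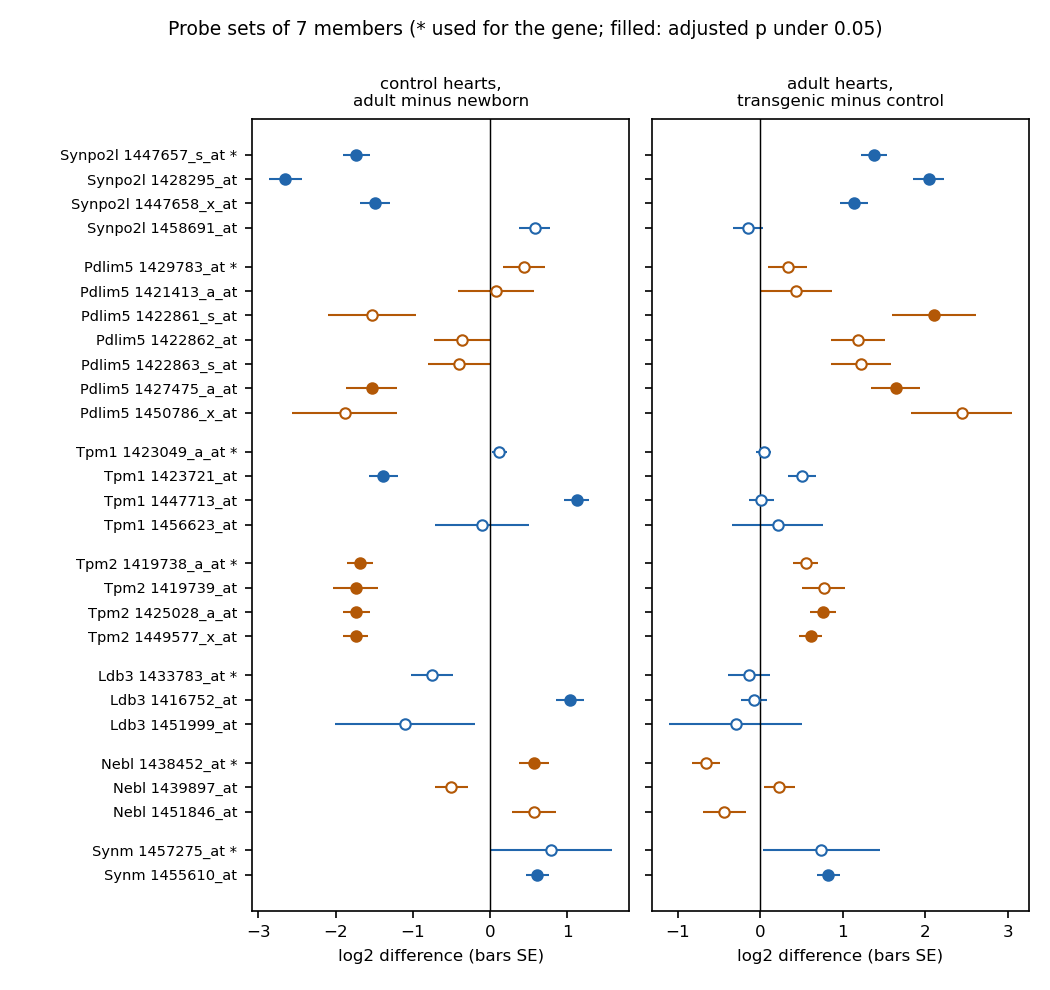
Differences (log2) for every probe set of 7 members with more than 1, for control adults minus control newborns (left) and transgenic minus control adults (right), with SE as bars, filled points for an adjusted p under 0.05 and a star at the brightest probe set of each gene. Probe sets of Pdlim5, Tpm1 and Ldb3 lie on both sides of 0 after birth, and 3 of 4 of Synpo2l lie above 0 in transgenic adults.

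Other genes of the same structures were taken from lists made by structure and role. The lists were made with earlier results of these data known, so their counts are not independent evidence. In transgenic adults 4.16% of all genes rose and 2.93% fell. Of 29 other Z-disc and costamere genes, 7 rose and 0 fell in transgenic adults, with a median of 0.35 against 0.00 for all genes. They included the adhesion protein zyxin (Zyx, 1.13), Pdlim1 (0.77), Pdlim7 (1.22) and the non-muscle alpha-actinin Actn4 (0.62). Of 15 other M-band and titin-linked genes, 3 rose and 0 fell (median 0.15): Ankrd1 (1.56) and Ankrd23 (0.97), ankyrin repeat proteins that bind titin, and Fhl1 (1.57), which binds titin's spring region. Of 20 other genes of actin filament length and turnover 1 rose (Dstn, destrin, 0.58), with a median of 0.29. Of 29 other chaperone and turnover genes 2 rose (Capn2, 0.61; Hspb1, 0.72) and 1 fell (Klhl40, by 0.45). Among 16 core contractile filament genes 3 rose, Myh7 (2.58), Acta1 (2.49) and Acta2 (1.56), with a median of 0.03. Acta2 is the same gene that was counted above among the smooth muscle and pericyte markers.

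In newborns 0 genes of these 5 lists were called between genotypes. The adult effect exceeded the newborn effect for 1 of them, Ankrd23 (adjusted p = 0.0173), where 0.687% of all genes were called for this difference. After birth in controls 2 of the 29 other Z-disc genes rose and 12 fell (median -0.35), and in transgenic hearts 3 rose and 11 fell (median 0.12). The chaperone and turnover genes held 8 rises and 5 falls in controls and 11 and 2 in transgenic hearts. Of all genes, 14.9% rose and 18.1% fell after birth in controls, and 19.7% rose and 19.7% fell in transgenic hearts. In the same comparison 10 and 12 of the 12 macrophage markers rose in control and transgenic hearts. Of 11 atrial markers, 1 rose and 3 fell in controls, and 0 rose and 8 fell in transgenic hearts. The part of either marker list in the members' changes after birth was not tested.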

How the data were processed

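Left ventricle RNA was measured on 11 arrays in 4 groups. The deposited values are on the log2 scale, 1 per probe set and array, and the submitters' processing notes name RMA, affy and limma with neither versions nor roles. Array medians were 5.12 to 5.18 over 45101 probe sets. RMA sets array distributions alike, so these values could not show a shift shared by most transcripts. Gene names come from the platform annotation: 34958 probe sets had 1 symbol, 932 several and 9211 none, and 34754 of the first matched RefSeq (GRCm38.p6), which changed 0 symbols. Where a gene had several single-symbol probe sets, the one of highest mean across the 11 arrays stood for it, which gave 18194 genes. The file holds no detection calls, and with arrays the number of samples limits the precision.

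The 4 group means were estimated together in limma 3.58.1 (lmFit and eBayes, R 4.3.3), with 7 residual and 3.85 prior degrees of freedom, for 5 contrasts, with 2-sided tests and Benjamini-Hochberg adjustment within each. Genes were called at an adjusted p under 0.05. Newborn groups were tighter than adult ones, and 1 spread per gene was estimated over all. Scripts were tested on simulated data. Values on every array are given for members called between genotypes or among the 6 largest differences of a contrast, and for Flnc and Trim63, added after their values were seen. Same-numbered replicates did not deviate together in every pair, so the numbers were not used as pairs. The members, the lists and the tests were chosen with earlier results of these data known. Sequences are printed for 7 of the promoter matches, and the others are not reported here.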

Additional observations from a re-analysis of the deposited data

Results flagged for a closer look

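The effect of the transgene on Synpo2l, a Z-disc protein that binds actin, differed between ages by the interaction test. The adult effect (1.38) minus the newborn effect (-0.26) was 1.63 (SE 0.24, limma's adjusted p = 0.0148), and every adult transgenic array lay above every adult control array, while newborn arrays overlapped. Groups of 3 or fewer arrays are too small for a test of single outlying arrays.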

How the results depend on the processing

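Over the 23 to 25 other settings in which each was run, 0 of 45 single-member results changed sign. Between adult genotypes Synpo2l and Unc45b were called in each setting planned (adjusted p of 0.000305 to 0.0297 and 0.00053 to 0.034), while calls were lost in 3 settings for Tmod4, 7 for Des, 14 for Nebl and 16 for Smpx. The 6 adult calls became 10 with the high-18S adult arrays as a covariate and 2 with only the adult arrays or with the atrial level as a covariate, while calls among all genes went from 1290 to 2625, 373 and 238. They were 3 to 9 when leaving out 1 array at a time, 3 without control adult replicate 2 and 9 without transgenic adult replicate 3. Calls among all genes were 746 (4.1%) without that control array and 2267 (12.5%) without that transgenic array, against 1290 (7.09%). The single call for the difference between ages became 3 with the 18S covariate, without the high-18S arrays or with array weights, 2 with the mean of all probe sets or cyclic loess, 0 with the atrial covariate, and 0 to 2 when leaving out 1 array, with 0 without transgenic newborn replicate 3 or control newborn replicate 1. The calls among all genes for that difference, 125, became 494, 711, 841, 96, 173 and 10 in the 6 settings named before the arrays left out. Without transgenic newborn replicate 3 they were 39, and without control newborn replicate 1 they were 6. The 17 transgenic calls after birth became 7 with the atrial covariate, as calls among all genes went from 7161 to 1826. Those kept were Cryab, Lmod2, Myot, Tcap and Trim54 (higher) and Tpm2 and Unc45b (lower). The causes of these moves were not tested. With the replicate number as a block, 6 members were called in adults (2 higher, 4 lower), 0 in newborns, 17 and 19 after birth in controls and transgenic hearts, and 1 for the difference between ages. In the same order, 8.06%, 0%, 33.1%, 39.7% and 0.693% of all genes were called with the block. Same-numbered arrays correlated in their deviations at -0.24 to 0.45 over 15 pairs. The highest value was that of the adult replicate 3 arrays, which had the high 18S signal, and adult replicates 1 and 2 gave 0.31 and -0.06. These values do not settle whether the number pairs adult arrays. Fitting every single-symbol probe set was chosen after seeing the data. The 2 control newborn arrays limit the newborn and control age contrasts, and dim probe sets (Myoz1, Synm, newborn Myot and Tmod4) limit what changes could be seen.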
